A study of Homo sapiens with 4 samples.

Results

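The footprints on 6 genes of chromatin proteins were followed across the deposited ribosome profiling counts: HMG20B, MBD3, CHAF1A and DOT1L on the short arm of chromosome 19, and PSIP1 and SMARCA2 on the short arm of chromosome 9. They were picked by name and by the GRCh38 place of their rows, 6 rows of the 78724 in the table. A minimum of 20 reads over the 4 libraries set which rows could be described beyond their counts, and all 6 passed it. MBD3, with 25 reads, lay just inside, and no member lay outside. The cells were A375, an established human melanoma line that the series title places among cancers lacking ASS1, the enzyme that lets cells make arginine from citrulline. They were kept for 48 h in control medium (2 libraries) or in medium made up with all amino acids but arginine (2 libraries). The labels do not say that the libraries came from separate cultures, so the spread between them may be technical.

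Chromatin regulators set which genes a cell can read. HMG20B carries a DNA-bending HMG box and belongs to the LSD1-CoREST corepressor complex, which removes activating marks from histones, and MBD3 is a core subunit of the NuRD remodelling and deacetylase complex. CHAF1A is the large subunit of chromatin assembly factor CAF-1, which loads new histones H3 and H4 behind the replication fork. DOT1L methylates a lysine in the core of histone H3 on transcribed genes, PSIP1 (LEDGF) reads methylated histone H3 through its PWWP domain, and SMARCA2 (BRM) is an ATPase of the SWI/SNF remodellers.

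Total counts ran from 105004 to 234766 per library, and 2526 rows were tested. The table's coordinates are those of GRCh38, while the submitters' processing notes name GRCh37, so a row need not hold its gene's reads. Between SMARCA2 and VCP on 9p and between ATP5F1D and CHAF1A on 19p, 26.2% of 229 protein-coding rows were at 0, against 72.4% of 18056 nuclear ones elsewhere. Of the 10 protein-coding rows on either side of each member, 0 of 20 were at 0 around MBD3, 3 around PSIP1, 4 each around CHAF1A and DOT1L and 6 around HMG20B, and 7 of 18 around SMARCA2. The 6 rows are read as their genes on that ground. SMARCA2 had the highest share of neighbours at 0 (38.9%), and HMG20B the lowest share with 20 or more reads (45.0%). Of 12 melanocytic and melanoma markers 11 had a matched row, and 5 of these, among them MITF, SOX10 and PMEL, were at 0, all outside these windows. Inside them lay TYRP1 and MLANA, both pigment cell genes, and CDKN2A, a cell cycle inhibitor, with 42, 18 and 30 reads, so the label melanoma could be checked only in part.

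The upstream sequences of the members with the lowest and the highest fitted change, HMG20B and SMARCA2, are printed to show sequence before an annotated start of each. They are the 250 bases before the RefSeq start nearest the upstream end of each gene (GRCh38.p14, plus strand). Their places are chr19:3572694-3572943 and chr9:2015097-2015346. For SMARCA2 4 such windows are listed and for PSIP1 2, and those at other starts were not read. Capitals mark CCAAT and GGGCGG on either strand, where overlapping matches run together. The SMARCA2 row of the table begins at 2015186, inside the printed window.
HMG20B: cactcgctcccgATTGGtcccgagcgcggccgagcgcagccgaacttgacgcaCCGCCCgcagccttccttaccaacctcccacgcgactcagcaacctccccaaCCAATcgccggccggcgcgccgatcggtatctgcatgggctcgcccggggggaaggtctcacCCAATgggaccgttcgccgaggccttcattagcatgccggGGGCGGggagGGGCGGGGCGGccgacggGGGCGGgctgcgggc
SMARCA2: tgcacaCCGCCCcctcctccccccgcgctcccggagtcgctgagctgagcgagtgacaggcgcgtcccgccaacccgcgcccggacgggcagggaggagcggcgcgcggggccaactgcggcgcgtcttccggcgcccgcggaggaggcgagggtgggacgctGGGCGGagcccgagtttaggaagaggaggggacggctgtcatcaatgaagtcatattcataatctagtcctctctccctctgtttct
The HMG20B window held 3 matches to CCAAT, the box read by NF-Y, and 5 to GGGCGG, the GC box read by SP1-type factors. That of SMARCA2 held 0 and 2. Over all 35116 promoter windows of that length in the RefSeq table, 32.0% held CCAAT and 42.6% GGGCGG on either strand. CHAF1A had 4 matches to CCAAT and 0 to GGGCGG, MBD3 had 1 and 2, and PSIP1 had 0 and 0, so the windows read did not share these motifs. TGATGNAA, a core of the ATF4 response element, and CATGTG, an E-box that MITF can bind, were in 0 of these 5 windows, against 3.14% and 9.42% of all windows. Other E-box forms were not searched for, and CACGTG occurs in the CHAF1A window. DOT1L was not matched. The windows were 61.6% (PSIP1) to 74.8% (MBD3) G and C.

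HMG20B had by far the most reads of the 6 in control medium and lost most of them without arginine. Its row (ENSG00000064961, chromosome 19, 3572944 to 3579083, plus strand) held 138 and 229 reads in the control libraries and 36 and 43 in those without arginine. In CPM (counts divided by each library's tested sum and its TMM factor) this was 1301 and 1174 against 156 and 270. Both arginine-free libraries lay far below both control libraries, and arginine-free replicate 1 was the lower of the pair. The fitted change was -2.56 on the log2 scale (SE 0.27, edgeR), or 5.92-fold lower. HMG20B was taken up because this difference was known, so the value is a description and no p is given. Both pigment cell markers of the windows had fewer reads without arginine too. TYRP1 held 16 and 25 reads in control and 1 and 0 without arginine. The depth-adjusted ratio of arginine-free to control reads was 0.0188 (0.000465 to 0.111, exact 95% interval for counting error). Its row passed the filter for testing through the control libraries alone, so no p is given for it. MLANA, which was not tested, held 6 and 10 against 0 and 2. CDKN2A, also not tested, went the other way with 0 and 2 against 11 and 17. Their part in the HMG20B difference was not tested. In bulk footprint counts, fewer cells making a protein, less of its mRNA per cell and fewer ribosomes per mRNA cannot be told apart.

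The make-up of the member reads differed between the media. HMG20B gave 54.3% and 54.5% of all member reads in the control libraries, and 12.3% and 21.3% in the arginine-free ones. Per kilobase of exon, its level was 781 ± 56.3 CPM in control and 134 ± 50.9 CPM in arginine-free medium (SD, n = 2 each). It was the highest of the 6 on that scale in both media, and the libraries of HMG20B stayed above those of PSIP1, the next in order, in each medium. Among 110 tested protein-coding rows of both windows, 2 had a lower fitted change, and over all 2526 tested rows 3.21% did. None of its exon bases are shared with another row of the table.

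**Figure D1:**
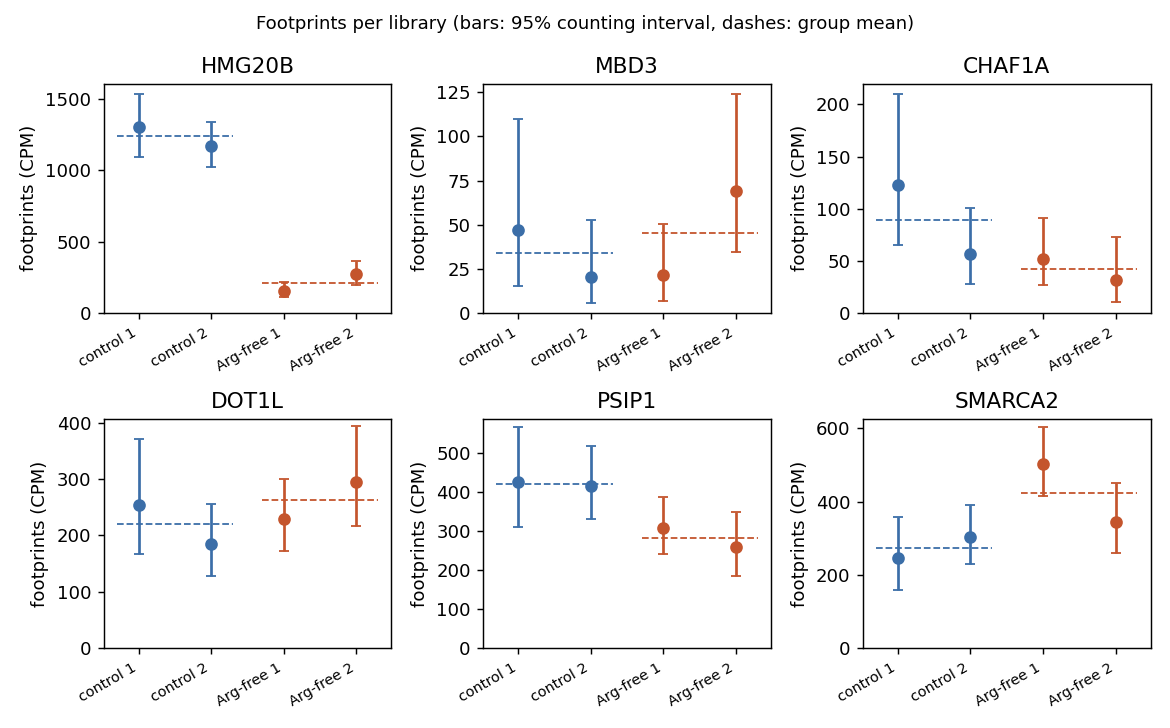
Footprints in CPM (vertical axis, linear, from 0, own scale per panel) in each of the 4 libraries for the 6 genes. Points are libraries, bars the exact 95% counting interval and dashes the group means. HMG20B stands at 1301 and 1174 CPM in control and at 156 and 270 CPM in arginine-free medium. For MBD3, CHAF1A, DOT1L and PSIP1 the intervals of all 4 libraries overlap.

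MBD3, the NuRD subunit (ENSG00000071655, chromosome 19, 1573596 to 1592865, minus strand), was too thinly covered for a test. It held 5 and 4 reads in control and 5 and 11 without arginine, giving 47.1 and 20.5 against 21.7 and 69.1 CPM. The highest and the next highest library came from different media, so the groups overlap. By summed counts the ratio of arginine-free to control was 1.37, with an exact 95% counting interval from 0.571 to 3.52. That interval leaves out the spread between libraries, and a change in either direction could not be told from none at this depth. Of its exon bases 767 are shared with a row on the same strand and 148 with one on the other, and reads there were left uncounted. MBD3 had the lowest level per kilobase of the 6 in both media (5.48 ± 3.05 and 7.35 ± 5.44 CPM, SD, n = 2 each).

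CHAF1A, the histone-loading subunit (ENSG00000167670, chromosome 19, 4402640 to 4443397, plus strand), held 13 and 11 reads in control and 12 and 5 in arginine-free medium. That was 123 and 56.4 against 52.0 and 31.4 CPM. Both arginine-free libraries lay below both control ones, but control replicate 2 stood nearer to the arginine-free libraries than to its own partner. The fitted change was -0.91 (SE 0.53, edgeR adjusted p = 0.208) and did not pass the threshold of 0.05. It went from -0.39 without control replicate 1 to -1.47 without control replicate 2, and passed in neither. The counts alone gave a ratio of 0.547 with an interval from 0.276 to 1.06.

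DOT1L, the histone H3 methyltransferase (ENSG00000104885, chromosome 19, 2163933 to 2232578, plus strand), held 27 and 36 reads in control and 53 and 47 in arginine-free medium. In CPM these were 254 and 185 against 230 and 295. Control replicate 1 lay above arginine-free replicate 1, so the groups overlap. The fitted change was 0.28 (SE 0.31, edgeR adjusted p = 0.521), a difference within the spread between libraries. The ratio by counts was 1.23, with an interval from 0.885 to 1.71. Its exons share 529 bases with PLEKHJ1 and 366 with DOT1L-AS1, both on the other strand, so reads from those bases are missing from the row. Over its 11 alternatives the change ran from 0.06 to 0.52 and never passed.

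PSIP1, the chromatin reader (ENSG00000164985, chromosome 9, 15464066 to 15510995, minus strand), held 45 and 81 reads in control and 71 and 41 in arginine-free medium. The control libraries were close together at 424 and 415 CPM, and the arginine-free ones stood at 307 and 258 CPM. Both lay below both control libraries. The fitted change was -0.56 (SE 0.25, edgeR adjusted p = 0.102), or 1.47-fold lower, and did not pass. Over its 11 alternatives it ran from -0.65 to -0.39 and never passed. PSIP1 ends against SNAPC3 on the other strand, and reads on the 71 shared exon bases are counted for neither. SNAPC3, a subunit of the small nuclear RNA activating complex, had a fitted change of -0.10 (SE 0.28).

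SMARCA2, the SWI/SNF ATPase (ENSG00000080503, chromosome 9, 2015186 to 2193624, plus strand), held 26 and 59 reads in control and 116 and 55 in arginine-free medium. These were 245 and 303 against 502 and 345 CPM. Both arginine-free libraries lay above both control ones, and arginine-free replicate 1 was well above the other. The fitted change was 0.62 (SE 0.27, edgeR adjusted p = 0.0956), or 1.54-fold higher, and did not pass. Without arginine-free replicate 2 it was 0.90 (SE 0.24) and passed (edgeR adjusted p = 0.013), but that fit has 1 arginine-free library, which is assumed to vary as the control libraries do. Dropping arginine-free replicate 1 instead gave 0.35, which did not pass, so the size rests on which of them is kept. The adjusted p of its 12 alternatives ran from 0.013 to 0.396. It shares 420 exon bases with an unnamed gene on the other strand, whose own row is at 0.

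Of the 5 tested members 1 was lower, HMG20B, and since its difference was known when it was chosen, nothing is read from that count. Among all rows 16.9% of tested rows were lower and 16.0% higher, and among the 117 tested rows of both windows 16.2% were lower and 16.2% higher. Of the other 4 members 0 passed with edgeR or with DESeq2, and PSIP1 and SMARCA2 had unadjusted edgeR p-values of 0.0428 and 0.0391. All 4 too were chosen with earlier results of these data known. Without control replicate 2 the lower rows numbered 243 of 2826 tested and the higher ones in the windows 10 of 125, and without control replicate 1 the lower ones in the windows 12 of 128. HMG20B, CHAF1A and PSIP1 had both arginine-free libraries below both control ones, and SMARCA2 both above. Such separation was found downward in 34.2% and upward in 33.1% of all tested rows, and with 5 genes these counts are not read as a result about the members. The median change of all tested rows was -0.03, and that of the protein-coding rows in the windows 0.10.

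**Figure D2:**
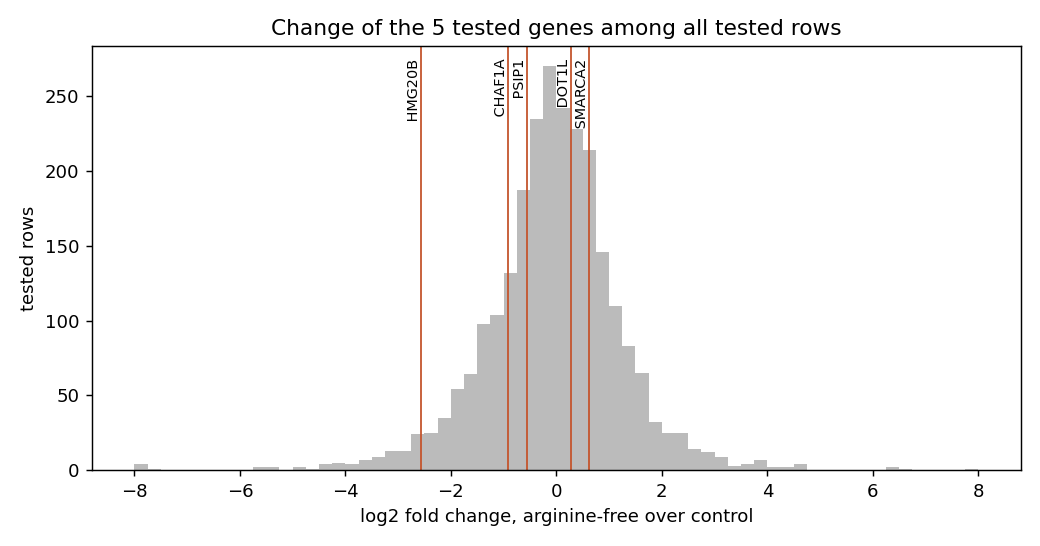
Number of tested rows (vertical axis) by fitted log2 fold change of arginine-free over control (horizontal axis, bins of 0.25, values past either end placed in the end bin). Red lines mark the 5 tested members. HMG20B, which was chosen for its difference, lies at -2.56 in the lower tail, with 3.21% of rows below it. The other 4 lie between -0.91 and 0.62.

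Below HMG20B and PSIP1 the levels per kilobase of exon were separated only in part. In control medium CHAF1A (26.6 ± 13.9 CPM per kilobase) and DOT1L (26.6 ± 5.98) had the same mean and overlapping libraries, and SMARCA2 followed at 19.5 ± 2.89 (SD, n = 2 each). The control libraries of CHAF1A, at 16.8 and 36.4, lay on either side of those of SMARCA2, at 17.4 and 21.5, so these genes have no settled order there. In arginine-free medium DOT1L (31.8 ± 5.62) and SMARCA2 (30.1 ± 7.89) overlapped, and CHAF1A stood lower at 12.4 ± 4.32 and overlapped with MBD3. PSIP1 was second in both, at 104 ± 1.52 and 69.9 ± 8.74 CPM per kilobase. The exon lengths join all annotated isoforms, so the level over a single isoform can be higher, above all for SMARCA2 with its 14064 exon bases.

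**Figure D3:**
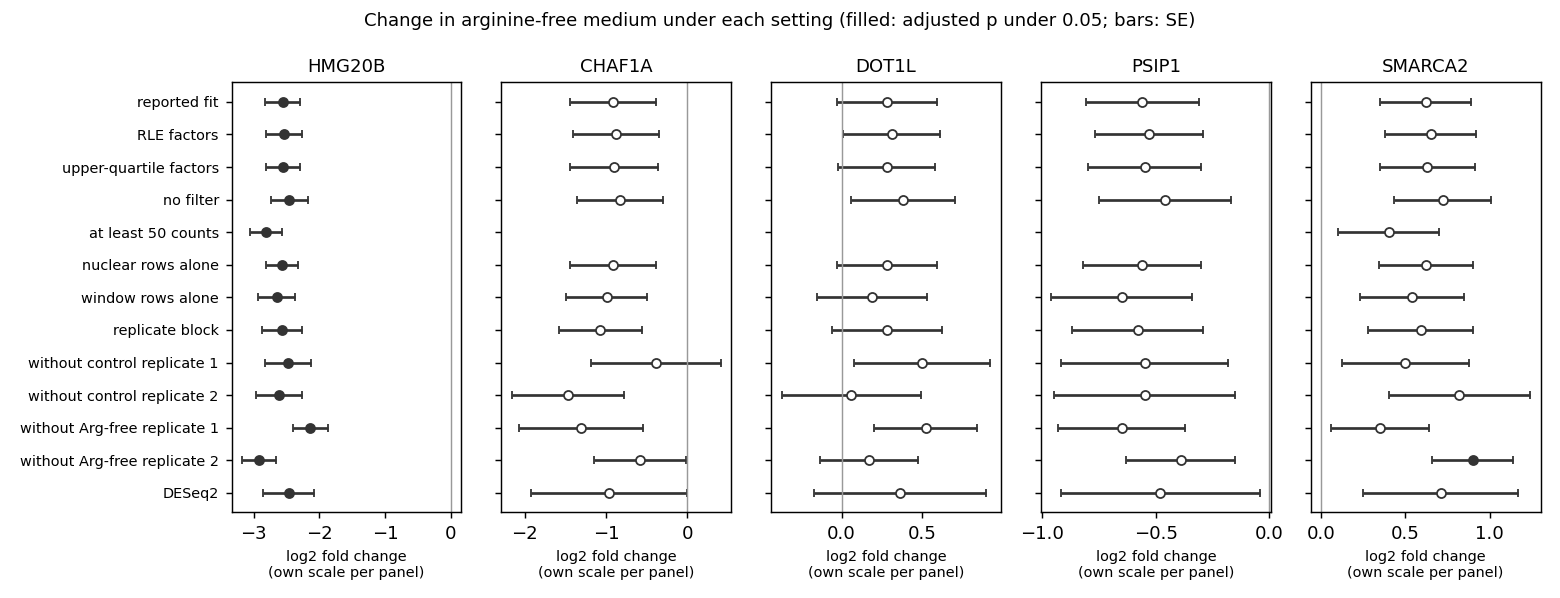
Fitted log2 fold change (horizontal axis, own scale per panel) of the 5 tested members under the reported fit and each alternative (rows), with SE bars and filled points where the adjusted p was under 0.05. HMG20B, which was chosen for its difference, lies between -2.92 and -2.14; among the other 4 the 1 filled point is SMARCA2 without arginine-free replicate 2, at 0.90.

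The genes nearest to the members moved in different directions. Next to HMG20B lies MFSD12, a melanosomal cysteine carrier, with 370 and 511 reads in control and 175 and 159 in arginine-free medium, a change of -1.80 (SE 0.25, edgeR adjusted p = 9.1e-05). On the other side CACTIN, a spliceosome-associated protein, stood at 0.46 (SE 0.47) and did not pass; without a library it ran from 0.21 to 1.04. Of the 10 tested protein-coding neighbours of HMG20B, 5 on each side, 1 was higher and 1 lower, with a median change of -0.12. The 1 higher, named after its values were seen, was DOHH, an enzyme of hypusine synthesis, at 1.73 (SE 0.41, edgeR adjusted p = 0.00542). Its call ended without control replicate 2 (adjusted p = 0.0729) and with DESeq2 (adjusted p = 0.064; lowest over its alternatives 0.000111).

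Around PSIP1, 3 of 10 such neighbours were higher and 4 lower, from ZDHHC21 at 2.23 to FREM1 at -2.55. ZDHHC21, also named after its values were seen, held 3 and 2 reads against 22 and 10. Its row passed the filter for testing through the arginine-free libraries alone, and that of FREM1 through the control libraries alone. Both calls are therefore descriptions, and no p is given. The ZDHHC21 call ended without control replicate 2, without arginine-free replicate 1 and with DESeq2. BNC2, a zinc finger protein and the next gene with 20 reads after PSIP1, was lower at -2.05 (SE 0.39, edgeR adjusted p = 0.00125). BNC2 did not pass with DESeq2 (adjusted p = 0.0593; lowest over its alternatives 7.36e-05). Beside SMARCA2, VLDLR was higher at 2.69 (SE 0.41) and DMRT2 on the other side stood at -0.27 (SE 0.51). VLDLR held 4 and 8 reads in control and 72 and 32 without arginine. Its row too passed the filter through the arginine-free libraries alone. DOT1L had 2 higher and 3 lower neighbours of 10, CHAF1A 3 and 1, and MBD3 0 and 1, while SMARCA2 had 1 and 0 of 7. Over all tested rows 16.0% were higher and 16.9% lower, and counts this small are not read as a trait of any surroundings. AP3D1, the trafficking adaptor subunit before DOT1L, was lower at -0.84 (SE 0.23, edgeR adjusted p = 0.0115). That call ended without control replicate 1 (adjusted p = 0.109), without arginine-free replicate 1 (adjusted p = 0.0594) and with DESeq2 (adjusted p = 0.135; lowest over its alternatives 0.00176).

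**Figure D4:**
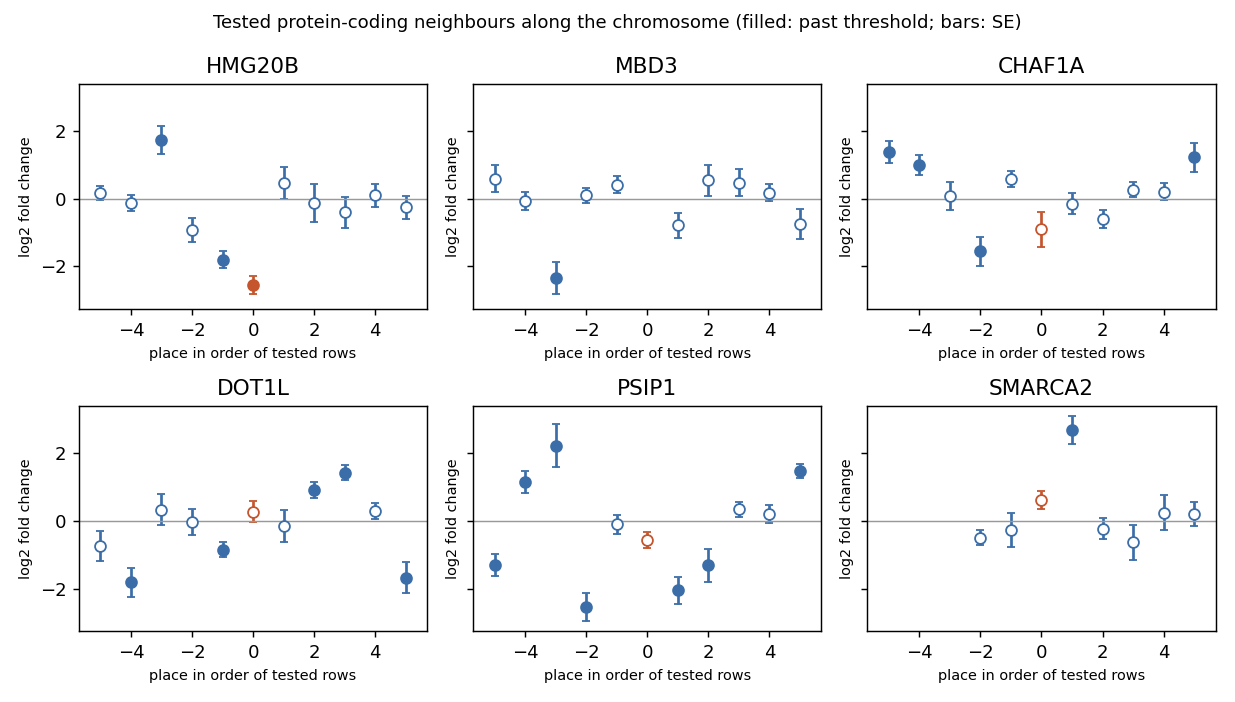
Fitted log2 fold change (vertical axis) of each member (red, at place 0) and of up to 5 tested protein-coding rows on either side, in their order along the chromosome (horizontal axis, no distances). Bars are SE and filled points passed the threshold; MBD3 has no point of its own because it was not tested.

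Partners and relatives of the members were taken from lists of 161 chromatin genes. The lists were chosen with earlier results of these data known, so calls among their genes are descriptions. Of the 154 with a matched row, 15 lay in both windows or were among the 3 next list genes after CHAF1A, and 139 lay elsewhere, where 83 rows were at 0 and none is read as its gene. Without the 6 members, 9 were left, of which 8 were tested, 1 rose, 1 fell and 6 did not pass. Over all tested rows 16.0% were higher and 16.9% lower, so these counts are not read as a result about the lists. The median change of the 8 was -0.40, beside -0.03 over all tested rows. TLE2, a corepressor of the Groucho family, held 6 reads in all.

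SIRT6, a nuclear deacetylase of histone H3, rose. It held 12 and 18 reads in control and 54 and 47 in arginine-free medium, or 113 and 92.3 against 234 and 295 CPM. Both arginine-free libraries were above both control ones, at a change of 1.38 (SE 0.33, edgeR adjusted p = 0.00619). The call ended without control replicate 2 (adjusted p = 0.0665) and with DESeq2 (adjusted p = 0.0996; lowest over its alternatives 0.00103). TLE5, a short Groucho relative that damps the long ones, fell by 0.80 on the log2 scale (SE 0.27, edgeR adjusted p = 0.0351), from 424 and 390 to 199 and 270 CPM. The TLE5 call ended without control replicate 1, control replicate 2 or arginine-free replicate 1 (adjusted p = 0.179, 0.145 and 0.164), and with the replicate block (adjusted p = 0.0691), with no filter (adjusted p = 0.138) and with DESeq2 (adjusted p = 0.402; lowest over its alternatives 0.0145).

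Several relatives form pairs with 1 gene on 9p and 1 on 19p. PSIP1 and HDGFL2, the other PWWP reader of its family that binds the same partners, had close values, at -0.56 and -0.61 (SE 0.27). HDGFL2 had 368 and 349 CPM in control and 208 and 264 CPM in arginine-free medium, with both below, and did not pass (edgeR adjusted p = 0.101). MLLT3 on 9p and MLLT1 on 19p encode YEATS-domain readers that bind DOT1L. MLLT3 held 5 and 8 reads against 20 and 13, a change of 0.95 (SE 0.47, edgeR adjusted p = 0.138). The MLLT1 row, named after its values were seen, lies outside the windows and beyond the list genes taken. It stood at 0.02 (SE 0.22) and is not read as its gene, so the 2 values are not a comparison of the pair.

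The remaining pairs did not pass either. UHRF1, which guides maintenance of DNA methylation, was at 104 and 103 CPM in control and 165 and 163 CPM in arginine-free medium, a change of 0.67 (SE 0.33, edgeR adjusted p = 0.135). Its relative UHRF2 stood at -0.71 (SE 0.56, edgeR adjusted p = 0.357). It moved to -1.81 without arginine-free replicate 1 and to -0.16 without arginine-free replicate 2, and passed in neither. The histone demethylases KDM4B and KDM4C had changes of -0.18 (SE 0.30) and -0.72 (SE 0.35, edgeR adjusted p = 0.124 for KDM4C). Without a library KDM4B ran from -0.31 to -0.06. Whether the genes of a pair differed from each other was not tested.

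**Figure D5:**
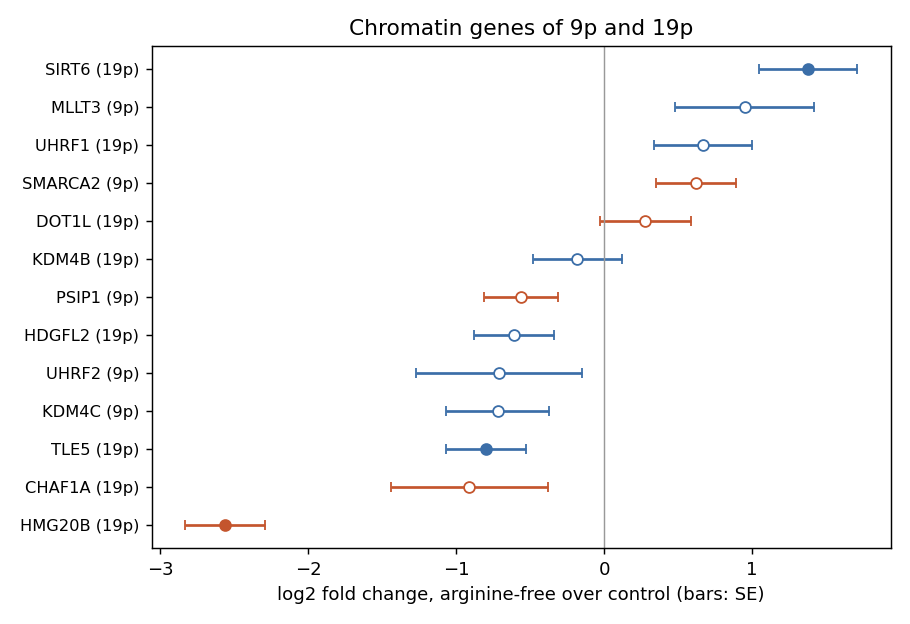
Fitted log2 fold change with SE (horizontal axis) of the 13 tested chromatin genes read as genes on 9p and 19p, members in red and other list genes in blue, filled where the threshold was passed. HDGFL2, UHRF1 and KDM4B lie past the 19p window, so reading them as genes has a weaker ground. HMG20B, which was chosen for its difference, stands at -2.56, so its place and filled point are a description only. The next lowest is CHAF1A at -0.91, and SIRT6 at 1.38 is the highest.

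Likeness of pattern was measured as the distance between log2 CPM over the 4 libraries, each row centred on its own mean, among the other 109 tested protein-coding rows of both windows. Nearest to HMG20B were FREM1, an extracellular matrix protein, at 0.292, and ATP5F1D, a subunit of ATP synthase, at 0.612, against a median distance of 2.74. FREM1 held 26 and 38 reads in control and 6 and 8 in arginine-free medium, and ATP5F1D 145 and 199 against 56 and 57. UBAP2 was nearest to DOT1L (0.0495), IFT74 to PSIP1 (0.207), TOPORS to SMARCA2 (0.184) and UBAP1 to CHAF1A (0.607). The median distances were smaller for these members than for HMG20B: 0.832 for DOT1L, 0.918 for PSIP1, 0.938 for SMARCA2 and 1.34 for CHAF1A. Second in order were DAZAP1 for DOT1L (0.2), RFX3 for PSIP1 (0.239) and for CHAF1A (0.609), and RCL1 for SMARCA2 (0.285).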

How the data were processed

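Footprint libraries of A375 cells were compared between control (2 libraries) and arginine-free medium (2 libraries), grouped by sample title. The deposited values are raw counts per gene identifier, which the authors produced using featureCounts 2.0.1 on exons of the GENCODE 47 basic annotation without a strand or overlap option, per the file headers, so reads on bases shared by genes stay uncounted. The header also sets an option for paired reads, while the labels' protocols describe single reads. Tools named, per the submitters' processing notes, are TopHat2, Bowtie2 2.5.2 and cutadapt, with GRCh37 (hg19) as build; ribosomal RNA was not depleted, per the labels' protocols.

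Rows were named by mutual best overlap with RefSeq genes of GRCh38.p14 (overlap over union of at least 0.5 with a shared end, otherwise 0.75), which named 38522 rows. Rows passing filterByExpr were tested with edgeR 4.0.16 (R 4.3.3; TMM, quasi-likelihood, Benjamini-Hochberg over 2526 rows, threshold 0.05). SE is the absolute log2 fold change over the root of F. Alternatives were DESeq2 1.42.0, other scalings, filters and row sets, each library left out, and the replicate number as a block. Counts were simulated for 2526 rows, 200 of them changed, all with the same dispersion (0.034). Of these changes 80.2% of 4-fold and 21.2% of 2-fold ones were recovered, with 4 calls among unchanged rows. Real rows need not share a dispersion, so these figures need not hold for the data. Counting intervals are exact at 95% and cover counting error only, since amplified fragments are not independent molecules. A count of 0 allows 3 reads, 12.8 to 28.6 CPM of all rows per library. Python 3.11.15 with pandas 2.3.3 made the tables.

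Genes named are the 6 members, list genes in the windows, the next row with 20 reads on either side of a member, the 2 rows nearest in pattern and melanoma markers from a list. DOHH, ZDHHC21 and MLLT1 fall outside that rule and were named after their values were seen. The members and lists were chosen with earlier results of these data known.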

Additional observations from a re-analysis of the deposited data

How the results depend on the processing

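The direction of the 5 tested members held under every alternative run for them. For the 4 other than HMG20B, which was chosen for its difference, 44 of 45 such values stayed on their side of the threshold. Where 1 library is left in an arm, it is assumed to vary as the other arm does. Leaving out 1 library moved HMG20B from -2.92 to -2.14, CHAF1A from -1.47 to -0.39, DOT1L from 0.06 to 0.52, PSIP1 from -0.65 to -0.39 and SMARCA2 from 0.35 to 0.90, which passed without arginine-free replicate 2. MBD3, which the filter left out of the reported fit, was 0.54 with DESeq2 (SE 1.23, no adjusted p given), 0.55 with no filter, and 1.06, -0.11 and 1.20 without control replicate 1, control replicate 2 and arginine-free replicate 1, none of these 4 edgeR values past the threshold. A further filter asked for at least 50 counts in every library of at least 1 medium. CHAF1A, DOT1L and PSIP1 gave no value under it. HMG20B met it in control medium alone and SMARCA2 in arginine-free medium alone. With the replicate block HMG20B was -2.57, and 354 rows were higher and 372 lower over the table against 405 and 428 without it. The replicate numbers are not known to pair cultures, and same-numbered libraries did not deviate together (r = -0.0528 across 2526 rows, which are not independent replicates).

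Counts over the table moved to 138 higher and 146 lower of 580 rows under that 50-count filter, and to 162 and 147 of 9443 rows with DESeq2. In the windows 19 were higher and 19 lower of 117 tested rows. There they moved to 10 and 8 of 41 rows under the 50-count filter and to 7 and 5 of 235 rows with DESeq2. Without a library they ran from 270 to 418 higher and 243 to 389 lower over the table, and from 10 to 24 higher and 12 to 20 lower in the windows; the fewest higher in the windows and lower over the table came without control replicate 2, and the fewest lower in the windows without control replicate 1. Fewer rows were tested at 50 counts by construction; otherwise the cause was not tested. Among the other named genes, some near 0 changed sign without a library: UBXN6 ran from -0.40 to 0.21, PLEKHJ1 from -0.37 to 0.35, SNAPC3 from -0.25 to 0.11, DMRT2 from -1.09 to 0.21, UBAP1 from -1.17 to 0.15, DAZAP1 from -0.03 to 0.27 and MLLT1 from -0.06 to 0.16. Under the 50-count filter DAZAP1 was -0.13 and MLLT1 -0.22. None of these passed. Low depth limits CHAF1A and MBD3 most.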
